A study of Mus musculus with 6 samples.

Results

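The genes of cyclic AMP signalling below the thyrotropin receptor were examined in mouse thyroid after loss of Foxe1, the forkhead factor that thyroid follicular cells express. They comprise all genes whose symbol is Adcy or Pde followed by a number or begins with Prkar, the catalytic subunits Prkaca and Prkacb, the G protein subunits Gnas, Gnaq and Gna11, the factors Creb1 and Creb3l1, Rap1gap, Rapgef3, and all Akap genes. Of 19505 named genes on the array 61 are members, with 1 probe set each: 3 G alpha subunits, 10 adenylyl cyclases, 23 phosphodiesterases, 6 kinase A subunits, 15 kinase A anchors, 2 genes of the Rap1 branch and 2 CREB family factors. Crem, Rapgef4, Pde4d, Pde4dip and Pde12 also meet the rule by their symbol and were not analysed here.

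Thyroid RNA came from 3 Foxe1flox/flox/Cre mice, called knockouts below, and 3 Cre control mice, with 1 lobe and 1 array per animal. All 6 mice were of a C57BL/6J background, carried Cre and were given tamoxifen at 0.05 g/kg into the abdomen once a day for 5 days, starting at an age of 6 to 8 weeks, so Cre and tamoxifen were shared by both groups. Lobes were taken 2 weeks after treatment. The sources used here do not give the promoter that drives Cre or the sex of the animals, and Y-linked transcripts were low on the arrays of control 1 and knockout 3.

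Thyrotropin binds its receptor on the follicular cell and, through the stimulatory G protein alpha subunit encoded by Gnas, turns on adenylyl cyclases, which make cyclic AMP from ATP. Cyclic AMP releases the catalytic subunits of protein kinase A from their regulatory subunits and activates the EPAC exchange factors of the small G protein Rap1. Anchoring proteins place kinase A at membranes, organelles and channels, CREB factors carry its signal to genes, and phosphodiesterases end it by hydrolysing the nucleotide. In the thyroid this route governs iodide uptake, hormone synthesis and growth of the gland, and a second route through Gnaq and Gna11 raises calcium.

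Values are log2 intensities of probe sets, processed by the authors with RMA, and a difference is the knockout mean minus the control mean, so 1 unit is a doubling. Foxe1 read 7.60, 7.19 and 7.04 in controls against 3.33, 2.88 and 3.04 in knockouts, and fell by 4.19 (SE 0.22, limma adjusted p = 0.000442). Whether its probes lie within the floxed segment is not stated. Array medians lay between 5.62 and 5.69. Thyroid markers were present on every array, with a summed level of 18.7 to 19.3 in the controls and 18.8 to 19.3 in the knockouts (log2 of the summed intensities of 8 genes, nearly all of it from Tg, the gene of thyroglobulin). Knockout 3 stood apart from the other knockouts for several tissues taken with the lobe. In RNA of whole lobes fewer cells of a type and less RNA per cell cannot be told apart.

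None of the 61 members passed an adjusted p of 0.05 in limma, where 0.338% of all 22206 probe sets did (0.252% higher and 0.0856% lower in the knockout). The smallest adjusted p among members was 0.115. An ordinary t statistic called none of the 22206 probe sets, Foxe1 included, so its count of 0 says nothing about the members. At an unadjusted p of 0.05 the limma fit held 8 members, 2 higher and 6 lower in the knockout, which is 13.1% of the 61, and 13.1% of all named genes reached it. In 16 members, or 26.2%, the 3 knockout values lay entirely on one side of the 3 control values, 4 above and 12 below, against 18.5% of named genes (9.68% above, 8.81% below). After median centring of the arrays the number was 13, against 19.0% of named genes, and after renewed quantile normalization 20, against 18.8%. Dim genes, with a mean at or below the lower quartile of all probe sets, made up 5 of the 16 and 9 of the 61. Of the 52 members above that quartile 11 had groups apart, or 21.2%, against 21.1% of named genes above it, and of the 37 members brighter than the median 8, against 24.8%.

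More members had a negative than a positive difference, 42 against 19, and their median difference was -0.26, where the median over all named genes was -0.02. Much of that lean came with 1 array. Knockout 3 gave the lowest of the 6 values for 29 of the 61 members, or 47.5%, and for 22.5% of all named genes. Without knockout 3 the median difference of the members was -0.082, with 37 negative and 24 positive. The summed level of 8 skeletal muscle markers was also lowest in knockout 3 (20.6, against 21.1 to 21.2 on the other arrays). So was that of 5 fibroblast markers (17.2, against 17.6 to 18.4). Knockout 3 was likewise lowest for 5 endothelial markers (11.1, against 11.8 to 13.0) and 5 smooth muscle markers (15.7, against 16.2 to 16.6). The adipocyte, C cell, mast cell, Schwann cell and airway lists were also lowest there, some only narrowly. The follicular, parathyroid, squamous, macrophage and lymphocyte lists were not. All 8 muscle markers and all 5 fibroblast markers had negative differences, and none of them had a mean in the lowest quartile. All 6 airway and all 5 macrophage markers were likewise negative, and 6 of 7 squamous markers positive. Among the knockouts, Y-linked transcripts were low only in knockout 3 (mean 2.65, against 8.27 and 8.30), as they were in control 1 among the controls. Leaving out either array therefore also unbalances this signal between the groups. The part of tissue content in the members' lean, and that of sex in the low values of knockout 3, was not tested.

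**Figure D1:**
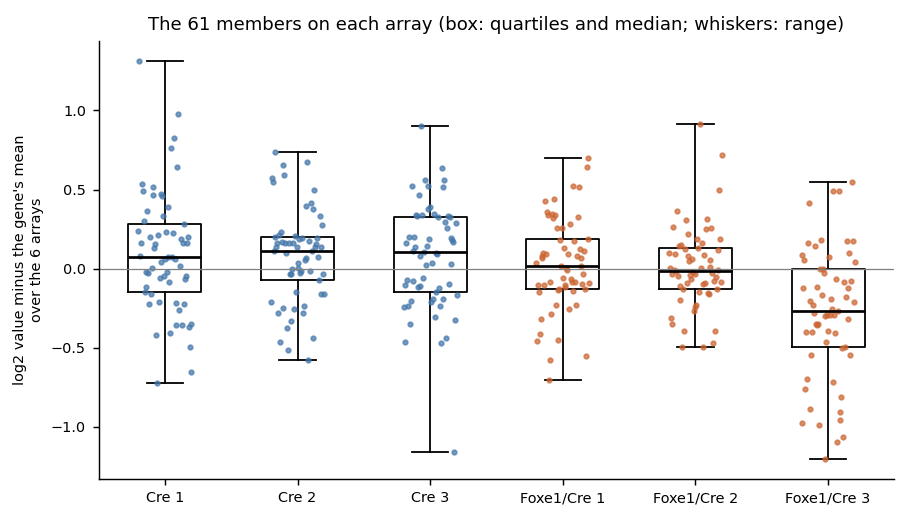
Each of the 61 members on each of the 6 arrays, as its log2 value minus its own mean over the arrays. Boxes give quartiles and median, whiskers the range. The median of the members lies at 0.073 to 0.11 in the controls, at 0.015 and -0.012 in knockouts 1 and 2, and at -0.27 in knockout 3.

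Promoter sequences from RefSeq (GRCm38.p6) were found for 50 of the 61 members. The 250 bases before each annotated start were searched on both strands for the cyclic AMP response element TGACGTCA, to which CREB binds, for the 5 letters TGACG it begins with, and for the forkhead core TGTTTA, and matches are printed in capitals. Shown are the windows of the 3 members with the smallest p of those that have one, Pde1c, Pde7b and Akap1, and of Prkar1a, the single member whose windows hold the full element. Where a gene has several windows, the one with the most matches is given.

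Pde1c, chr6:56369635-56369884, minus strand: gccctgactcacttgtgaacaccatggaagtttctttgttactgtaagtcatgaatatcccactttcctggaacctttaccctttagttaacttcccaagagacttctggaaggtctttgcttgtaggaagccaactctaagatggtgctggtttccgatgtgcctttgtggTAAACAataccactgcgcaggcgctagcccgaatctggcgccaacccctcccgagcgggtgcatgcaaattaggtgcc
Pde7b, chr10:20548329-20548578, minus strand: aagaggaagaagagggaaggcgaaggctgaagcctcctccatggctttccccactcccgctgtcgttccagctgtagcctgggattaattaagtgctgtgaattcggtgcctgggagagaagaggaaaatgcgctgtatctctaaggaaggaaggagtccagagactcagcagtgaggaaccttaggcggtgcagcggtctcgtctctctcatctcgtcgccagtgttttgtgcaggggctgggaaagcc
Akap1, chr11:88851504-88851753, minus strand: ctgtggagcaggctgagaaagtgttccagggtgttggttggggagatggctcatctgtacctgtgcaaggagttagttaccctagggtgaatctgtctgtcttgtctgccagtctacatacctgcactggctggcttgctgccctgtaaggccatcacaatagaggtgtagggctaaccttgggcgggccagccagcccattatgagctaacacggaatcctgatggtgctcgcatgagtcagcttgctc
Prkar1a, chr11:109650699-109650948, plus strand: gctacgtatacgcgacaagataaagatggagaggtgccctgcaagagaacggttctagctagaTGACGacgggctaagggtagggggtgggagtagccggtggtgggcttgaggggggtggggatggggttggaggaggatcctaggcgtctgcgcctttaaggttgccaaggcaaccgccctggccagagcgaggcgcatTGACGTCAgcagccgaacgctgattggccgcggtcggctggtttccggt

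In Prkar1a the full element begins 49 bases before the start and a separate TGACG begins 187 bases before it. In Pde1c a forkhead core begins 78 bases before the start, and the windows of Pde7b and Akap1 hold none of the 3 motifs. The full element occurred in 1 of the 50 members (2%) and in 1.77% of 27025 genes with a window. The letters TGACG, which the full element contains, occurred in 15 of 50 (30%) against 19.8%, and the forkhead core in 9 of 50 (18%) against 13.5%. A gene counted if any of its windows held the motif, so genes with more windows had more chances to match. The shares were not adjusted for the number of windows. These are matches of letters, not binding sites.

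Among the G protein subunits, all 3 differences were negative and none passed the threshold. Gnas, which couples the thyrotropin receptor to cyclic AMP, read 15.47, 15.67 and 14.86 in controls against 14.52, 14.90 and 14.17 in knockouts. Control 3 was the low control and lay just below knockout 2, so the groups overlapped narrowly. The difference was -0.80 (95% interval -1.43 to -0.18, limma adjusted p = 0.261), and -0.62 without knockout 3. The Gnas locus makes several overlapping transcripts on both strands, and the sources used here do not say which of them the probe set reads.

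Parathyroid tissue, in which Gnas also acts, varied widely between lobes. The summed level of its 3 markers Pth, Casr and Chga was 18.5, 20.0 and 17.1 in controls against 8.70, 18.7 and 10.7 in knockouts. Within each group Gnas was highest on the array with the most parathyroid signal, control 2 and knockout 2. Control 3 was the lowest control for both, but among the knockouts knockout 1 was lowest for the markers and knockout 3 for Gnas. The part of parathyroid tissue in the Gnas difference was not tested.

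Gnaq and Gna11 encode the subunits that drive phospholipase C. Gnaq read 9.49, 9.44 and 9.49 in controls against 9.18, 8.98 and 9.38 in knockouts. The controls were nearly equal and all 3 knockouts lay below them, by as little as 0.06. Its difference was -0.29 (95% interval -0.71 to 0.12, limma adjusted p = 0.561). Gna11 read 11.86, 12.33 and 11.68 against 11.68, 11.47 and 11.66, a difference of -0.35 (95% interval -0.84 to 0.14), with control 3 level with knockout 1. Without control 2 it was -0.17.

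The 10 adenylyl cyclases had differences between -0.62 and 0.34, 7 negative and 3 positive, with a median of -0.16. That direction depended on knockout 3, since without it 4 were negative and 6 positive and the median was 0.026. No cyclase passed the threshold, and the smallest adjusted p was 0.352. Adcy6, a calcium-inhibited form, and Adcy9, which responds little to forskolin, both read above the median of the arrays. Adcy6 read 8.96, 8.51 and 8.90 in controls against 9.10, 8.56 and 8.53 in knockouts, fully overlapping, with a difference of -0.060 (95% interval -0.58 to 0.46). Adcy9 read 7.68, 7.33 and 7.05 against 7.08, 7.04 and 6.82. Its knockouts lay low but overlapped control 3, with a difference of -0.37 (95% interval -0.86 to 0.11) that was -0.21 without control 1.

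Adcy3, first known from olfactory neurons, had a difference of 0.12 (95% interval -0.48 to 0.72). Adcy2, Adcy4 and Adcy7 form the class that G beta-gamma subunits stimulate, and their differences were -0.42, -0.21 and -0.56. Adcy7 read 5.44, 6.26 and 5.94 in controls against 4.90, 5.75 and 5.32 in knockouts, with control 1 below knockout 2. Adcy2 rested on knockout 3, which read 7.84 beside 8.62 and 9.09 in the other knockouts, and without it the difference was -0.078. Adcy4, which is prominent in endothelium, was at 0.012 without knockout 3.

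The calcium-stimulated cyclases Adcy1 and Adcy8 had opposite signs. Adcy8 read 4.08, 4.67 and 4.41 in controls against 3.50, 3.58 and 4.22 in knockouts, a difference of -0.62 (SE 0.25, limma adjusted p = 0.352). Knockout 3 was the highest knockout here and overlapped control 1. Adcy1 had a difference of 0.22 and Adcy5, the calcium-inhibited relative of Adcy6, one of -0.10. Adcy10, the soluble cyclase that bicarbonate stimulates, read 3.44, 3.18 and 3.26 against 3.56, 3.45 and 3.88. All 3 knockouts were above the controls, by as little as 0.01, and its mean was below the lower quartile of all probe sets, where signal and background are hard to separate.

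Among the roles of the members, the phosphodiesterases, the most numerous, held the widest spread, from -0.80 to 1.13. They had 15 negative and 8 positive differences and a median of -0.27. Groups were apart in 9 of the 23, 3 above and 6 below, or 39.1% beside 18.5% of named genes. Of those below, Pde6a, Pde6c and Pde11a had means below the lower quartile of all probe sets. Without knockout 3 the median was -0.082, with 13 negative and 10 positive. By substrate, the 7 genes specific for cyclic AMP (families 4, 7 and 8) had 4 positive and 3 negative differences with a median of 0.27. That median is the difference of Pde8b, whose mean lay below the lower quartile of all probe sets. Without knockout 1 the Pde8b difference was -0.015. The 5 genes of families 2, 3, 10 and 11, which hydrolyse both nucleotides, were all negative, but without knockout 3 Pde2a was at 0.093 and Pde10a at 0.020.

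Pde7b, a cyclic AMP phosphodiesterase that rolipram does not inhibit, had the largest positive difference of any member. It read 8.67, 8.88 and 7.88 in controls against 9.68, 9.54 and 9.59 in knockouts. The knockouts were nearly equal to each other, and the lowest of them exceeded the highest control by 0.66. The difference was 1.13 (SE 0.27, 95% interval 0.52 to 1.73, limma adjusted p = 0.13), a ratio of 2.18, and it was 0.83 without control 3, the low control. All 8 follicular cell markers also had positive differences, with a median of 0.99, and groups were apart upward in Iyd (2.10), Tshr (1.75), Pax8 (1.52), Duox1 (1.11) and the dim Slc26a4 (0.41). Their summed level, which is nearly that of Tg alone (difference 0.043), overlapped between the groups. The part of follicular cells in the Pde7b difference was not tested.

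Pde1c, of the family that calcium and calmodulin activate, had the smallest p of any member. It read 5.00, 4.64 and 4.75 in controls against 5.74, 5.47 and 5.71 in knockouts, so that a gap of 0.47 separated the groups. Its difference was 0.84 (SE 0.19, 95% interval 0.41 to 1.27, limma adjusted p = 0.115), and it lay between 0.77 and 0.94 when any 1 array was left out. The relatives in the same family went the other way. Pde1a had a difference of -0.73 (95% interval -1.53 to 0.070), which was -0.37 without knockout 3, and Pde1b one of -0.33, which was -0.077 without control 2.

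Both genes of family 3, whose hydrolysis of cyclic AMP is inhibited by cyclic GMP, had negative differences. Pde3a, of heart, platelets and vascular smooth muscle, read 7.88, 7.22 and 7.75 in controls against 7.15, 7.08 and 6.33 in knockouts. All 3 knockouts lay below the controls, knockout 3 by far the most, and the difference was -0.76 (95% interval -1.40 to -0.13, limma adjusted p = 0.293). It was -0.50 without knockout 3. Pde3b, the form through which insulin restrains fat breakdown in adipocytes, read 10.62, 10.06 and 9.45 against 9.41, 9.48 and 8.83. Control 3 lay among the knockouts, and the difference was -0.80 (95% interval -1.52 to -0.088, limma adjusted p = 0.328).

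All 6 adipocyte markers had negative differences, and their summed level was 17.4, 16.2 and 16.6 in controls against 16.5, 16.5 and 15.9 in knockouts. Control 1 was the highest array and knockout 3 the lowest both for Pde3b and for these markers. The arrays between did not keep 1 order. Control 2, the lowest control for the markers, read 10.06 for Pde3b, above all knockouts. Without control 1 the Pde3b difference was -0.52. The part of fat cells in it was not tested.

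Family 4, the cyclic AMP phosphodiesterases that rolipram inhibits, is represented by Pde4a, Pde4b and Pde4c, with differences of -0.27, -0.46 and 0.46, the first of which was -0.092 without knockout 3. Pde4b, the form best known from immune cells, read 9.87, 10.23 and 10.15 in controls against 10.18, 9.91 and 8.79 in knockouts. Its difference rested on knockout 3, the only array below 9.87, and was -0.038 without it. Pde8a, a form with very high affinity for cyclic AMP, had a difference of 0.36 (95% interval -0.16 to 0.88), its 3 knockouts lying between 8.84 and 8.85 and control 2 above them at 8.94. Pde7a had groups apart by 0.02, with a difference of -0.34 that was -0.15 without knockout 1.

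Of the genes specific for cyclic GMP, Pde9a had a difference of 0.45 with groups apart by 0.07, and one of 0.20 without knockout 2. Pde5a, the target of sildenafil, had a difference of -0.26, and of -0.082 without knockout 3. The 6 genes of family 6, named for the phosphodiesterase of rods and cones, were between -0.54 and 0.11. In 3 of them, Pde6a, Pde6c and Pde6h, groups were apart downward, or 50% beside 18.5% of named genes. Pde6a and Pde6c were dim, with means below the lower quartile of all probe sets. Pde6c, the catalytic subunit of cones, read 3.33, 3.24 and 3.37 in controls against 2.95, 2.65 and 2.73 in knockouts, a difference of -0.54 (SE 0.18, limma adjusted p = 0.249). These readings stood near the 13.1th percentile of the arrays, where little transcript may be present. Pde6d, a carrier of prenylated proteins rather than an enzyme, read above the median of the arrays and had a difference of -0.14 (95% interval -0.53 to 0.26).

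**Figure D2:**
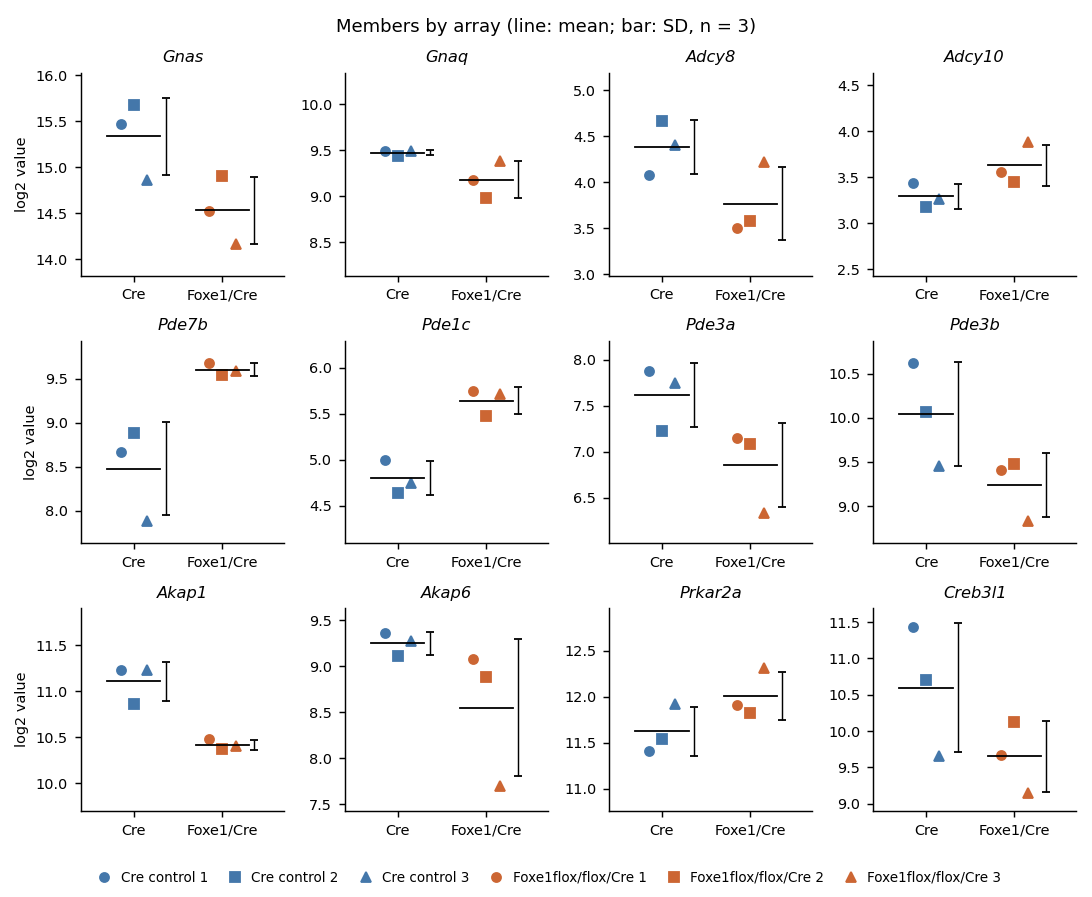
Log2 values of 12 members on the 3 Cre control arrays (blue) and the 3 Foxe1flox/flox/Cre arrays (orange), with the group mean as a line and the SD as a bar (n = 3). Vertical axes differ between panels and do not start at 0. Pde7b, Pde1c and Akap1 show the clearest gaps between the groups, of 0.66, 0.47 and 0.38, while Akap6 and Pde3a owe much of their difference to knockout 3.

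The 6 subunits of kinase A had differences between -0.27 and 0.39, 4 negative and 2 positive, and in none were the groups apart. Prkaca, the main catalytic subunit, read 12.71, 12.92 and 12.77 in controls against 12.63, 12.92 and 12.44 in knockouts. The groups overlapped, and the difference was -0.14 (95% interval -0.58 to 0.31, limma adjusted p = 0.829). Prkacb had a difference of -0.12 (95% interval -0.60 to 0.37). Both intervals stop short of 1 unit in either direction, and smaller changes lie within them.

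Among the regulatory subunits, Prkar1a, whose loss frees the kinase in tumours of the Carney complex and whose promoter window above holds the full response element, read 12.13, 12.04 and 12.40 against 12.06, 11.91 and 11.80. Its difference was -0.27 (95% interval -0.69 to 0.16). Prkar2a read 11.41, 11.54 and 11.92 in controls against 11.91, 11.82 and 12.31 in knockouts, with control 3 among the knockouts. Its difference of 0.39 (95% interval -0.11 to 0.89, limma adjusted p = 0.51) was the largest of the subunits. Prkar2b, the form of fat and brain, had a difference of -0.26, set by control 1 at 11.59, and without that array it was 0.062. Prkar1b was at 0.13, with knockouts spread from 4.26 to 5.89.

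Of the 15 anchoring genes, 10 had negative and 5 positive differences, with a median of -0.19, and 4 had groups apart, all downward, or 26.7% beside 18.5% of named genes. After median centring 9 were negative and 6 positive. Without centring, Akap4, Akap6 and Akap8l had groups apart by only 0.05, 0.03 and 0.07. Akap4 had a mean below the lower quartile of all probe sets. Akap1 tethers kinase A to the outer mitochondrial membrane. It read 11.23, 10.86 and 11.23 in controls against 10.48, 10.37 and 10.41 in knockouts. The knockouts were closely grouped and all lay below the lowest control by 0.38 or more. The difference was -0.69 (SE 0.19, 95% interval -1.11 to -0.26, limma adjusted p = 0.167), and -0.68 without knockout 3.

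Akap6, the anchor of the nuclear envelope in muscle, read 9.36, 9.11 and 9.28 against 9.08, 8.88 and 7.70, a difference of -0.70 (SE 0.34, limma adjusted p = 0.44). It rested on knockout 3 and was -0.27 without it. That array was lowest in muscle markers and in several other marker lists. The part of muscle in the Akap6 difference was not tested. Akap7, which places the kinase at membrane channels, had a difference of -0.48 (95% interval -1.01 to 0.053). Akap9, the large anchor of centrosome and Golgi, read 12.17, 11.94 and 11.73 against 12.07, 11.71 and 12.01, with a difference of -0.017 (95% interval -0.47 to 0.44). The other anchors lay between -0.43 for Akap12 and 0.28 for Akap13, but Akap12 was at -0.038 without knockout 3 and Akap13 at -0.015 without control 1. Akap3 and Akap4, of the sperm tail, were at the bottom of the scale.

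In the Rap1 branch, Rapgef3, the exchange factor EPAC1 that cyclic AMP opens, read 6.59, 6.43 and 6.49 in controls against 6.36, 6.28 and 5.59 in knockouts. The groups were apart by 0.07, and the difference of -0.43 (95% interval -0.96 to 0.11, limma adjusted p = 0.5) was -0.18 without knockout 3. Rap1gap, the thyroid-rich protein that switches Rap1 off, had a difference of -0.30 (95% interval -0.89 to 0.29) with overlapping groups, and one of -0.13 without control 1.

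Creb1, the factor that kinase A phosphorylates, read 8.80, 8.35 and 8.32 in controls against 8.60, 8.66 and 8.65 in knockouts, a difference of 0.15 (95% interval -0.30 to 0.59). Creb3l1 encodes a factor of the endoplasmic reticulum membrane that acts on secretory and collagen genes. It read 11.44, 10.70 and 9.66 against 9.67, 10.13 and 9.15. The controls alone spread from 9.66 to 11.44 and control 3 lay among the knockouts, and the difference of -0.95 (SE 0.43, limma adjusted p = 0.408), the most negative of any member, was smaller than that spread. It was -0.53 without control 1.

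**Figure D3:**
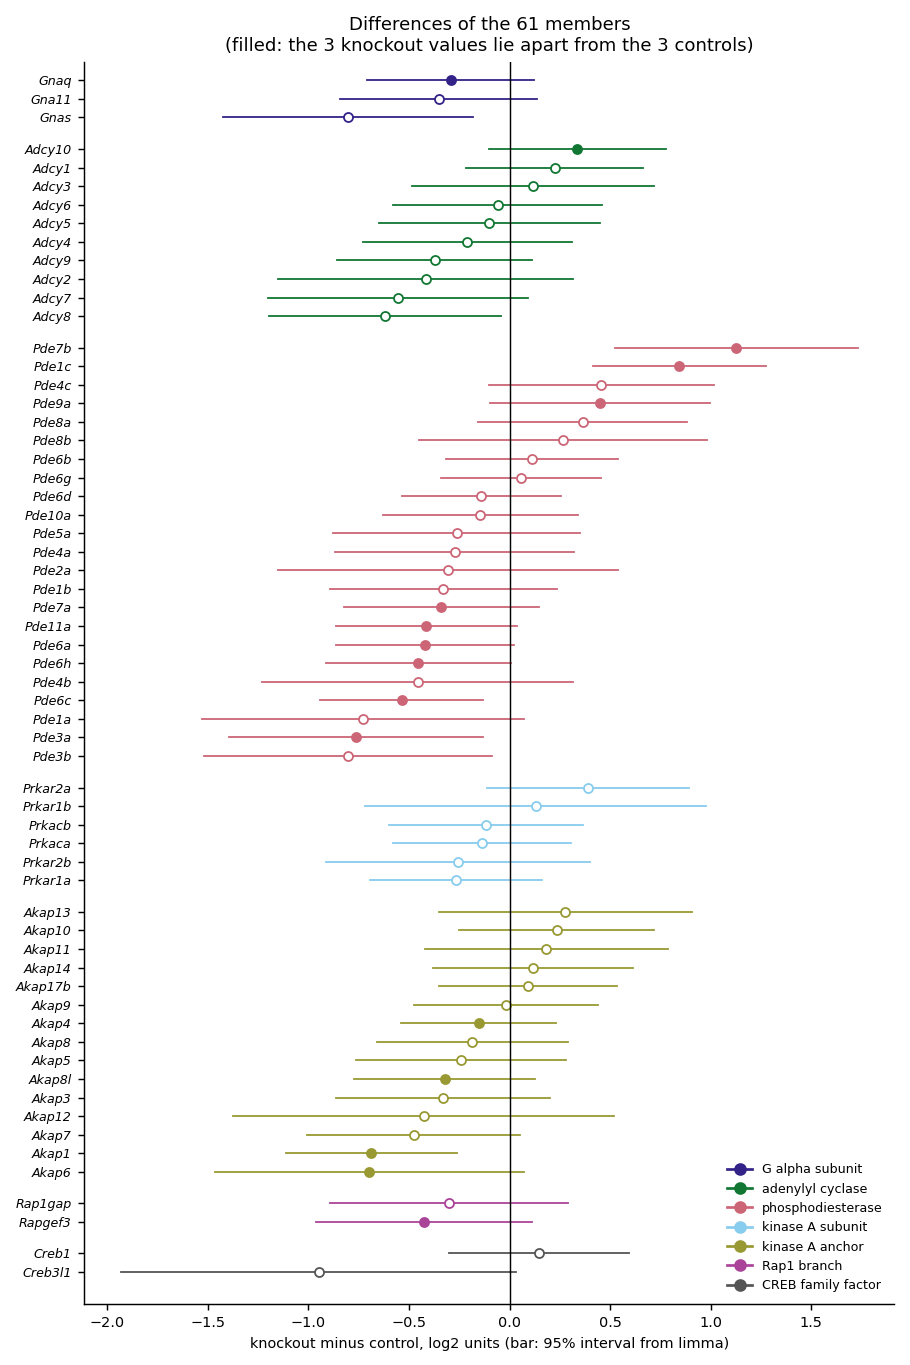
Differences of the 61 members on the log2 scale by role, with 95% intervals from limma (horizontal axis, knockout minus control). Filled points mark the 16 genes whose groups lie apart. Pde7b (1.13) and Pde1c (0.84) lie farthest to the right, Creb3l1 (-0.95), Gnas (-0.80) and Pde3b (-0.80) farthest to the left.

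The genes around the members were taken from 9 lists of other pathway components, with 180 measured genes. One of them passed the threshold over all probe sets, where 0.338% of probe sets did. Of the differences 84 were positive and 96 were not, among them Cnga4 and Gng2 with equal group means, and the median was -0.03. The gene past the threshold was Hcn2, a pacemaker channel that cyclic AMP opens directly, which rose. Hcn2 read 3.30, 3.55 and 3.49 in controls against 5.57, 5.58 and 6.06 in knockouts. The difference was 2.29 (SE 0.20, limma adjusted p = 0.00997), a ratio of 4.89, and the controls stood near the lower quartile of the arrays (3.49 to 3.60), so the ratio may be limited by background. The adjusted p was 0.0647 without knockout 1 and 0.277 with an ordinary t statistic. Of its relatives, Hcn3, with a mean below the lower quartile of all probe sets, had a difference of 0.19. Hcn4, near the 29.1th percentile of the arrays, had one of -0.35 with groups apart downward.

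Upstream, the 28 receptors that raise or lower cyclic AMP split evenly, 14 positive and 14 negative, and none passed the threshold. Tshr, the thyrotropin receptor, read 7.72, 7.76 and 7.02 in controls against 9.53, 8.08 and 10.13 in knockouts, with a difference of 1.75 (limma adjusted p = 0.167). Adcyap1r1, a receptor of the peptide PACAP, was at -0.80. Of 27 other G protein subunits 17 were positive, with a median of 0.07. Gnai3, which restrains cyclases, read 11.77, 12.46 and 12.33 against 13.23, 13.02 and 13.66, all knockouts above all controls, with a difference of 1.12 (SE 0.25, limma adjusted p = 0.119). Gna14, a relative of Gnaq, was at -0.82 (limma adjusted p = 0.167) with groups apart downward, while the other inhibitory subunits Gnai1 and Gnai2 were at 0.067 and 0.043.

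Among 27 regulators of G protein signalling 18 were negative (median -0.17), with Rgs13 at -0.78 and Rgs7 at -0.63 and all 6 genes with groups apart lower in the knockout, or 22.2% beside 18.5% of named genes. In the phospholipase C branch 13 of 23 were negative (median -0.15), and 10 of 23 had groups apart, 4 above and 6 below, or 43.5% beside 18.5% of named genes. All 23 had means above the lower quartile of all probe sets, where 21.1% of named genes had groups apart. Knockout 3 was the lowest array for 13 of these 23. The kinase C genes Prkcq and Prkcb differed by -0.88 and -0.91 (limma adjusted p of 0.154 and 0.183), each with groups apart. Prkcq and Prkcb are best known from T and B lymphocytes, and Prkcq also from skeletal muscle. Of 18 kinase A inhibitors, relatives and other cyclic AMP binders 7 were positive and 11 were not, among them Cnga4 with equal group means. Groups were apart in 7 of the 18, 4 above and 3 below, or 38.9% beside 18.5% of named genes. Hcn2 was the single call.

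Further down, 12 of 17 CREB relatives, coactivators and salt-inducible kinases were negative (median -0.16). Sik1, a kinase that cyclic AMP induces and that holds back CREB coactivators, was at 0.76 (limma adjusted p = 0.163), with all knockouts above all controls, and Creb3l2 at -0.50. Of 16 textbook targets of cyclic AMP and CREB, 11 were positive and 5 negative with a median of 0.48, and none passed the threshold. Their differences ran from -1.91 to 1.79. Groups were apart in 4 of the 16, all upward, or 25% beside 18.5% of named genes. Egr1, at 1.79, had groups apart by 0.04. Nr4a2, an orphan nuclear receptor, read 9.34, 9.54 and 9.05 against 10.94, 11.41 and 10.29, a difference of 1.57 (SE 0.29, limma adjusted p = 0.073). Many of these targets also respond to handling of tissue, and Fos varied widely among the controls, with 5.25, 6.73 and 8.74 against 8.02, 7.53 and 7.56 in the knockouts. Its difference of 0.80 was -0.032 without control 1. The part of handling in the targets' median was not tested. The 15 genes of the Rap1 branch (median 0.01, Rapgef1 at -0.52, Sipa1l1 at 0.57) and the 10 of cyclic GMP synthesis and its kinases (median -0.09, Prkg1 at -0.48, Npr2 at -0.43) held no gene with groups apart.

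**Figure D4:**
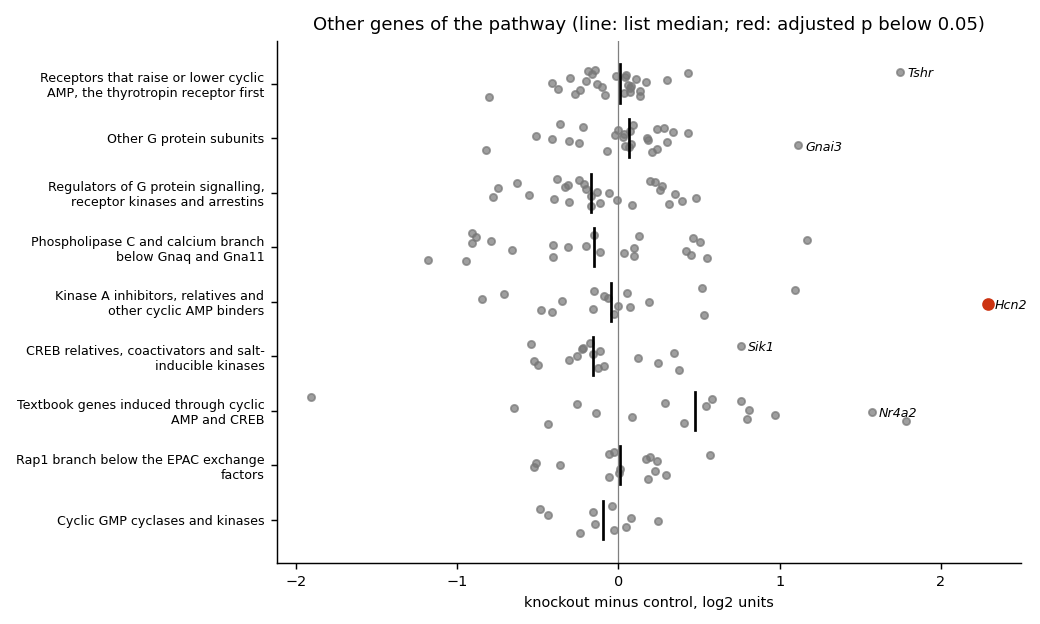
Differences of 180 other pathway genes on the log2 scale (horizontal axis, knockout minus control) in 9 lists, with the list median as a line. Hcn2 (2.29, red) is the single gene past the threshold. The targets of cyclic AMP and CREB have a median of 0.48, and the other list medians lie between -0.17 and 0.07.

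**Figure D5:**
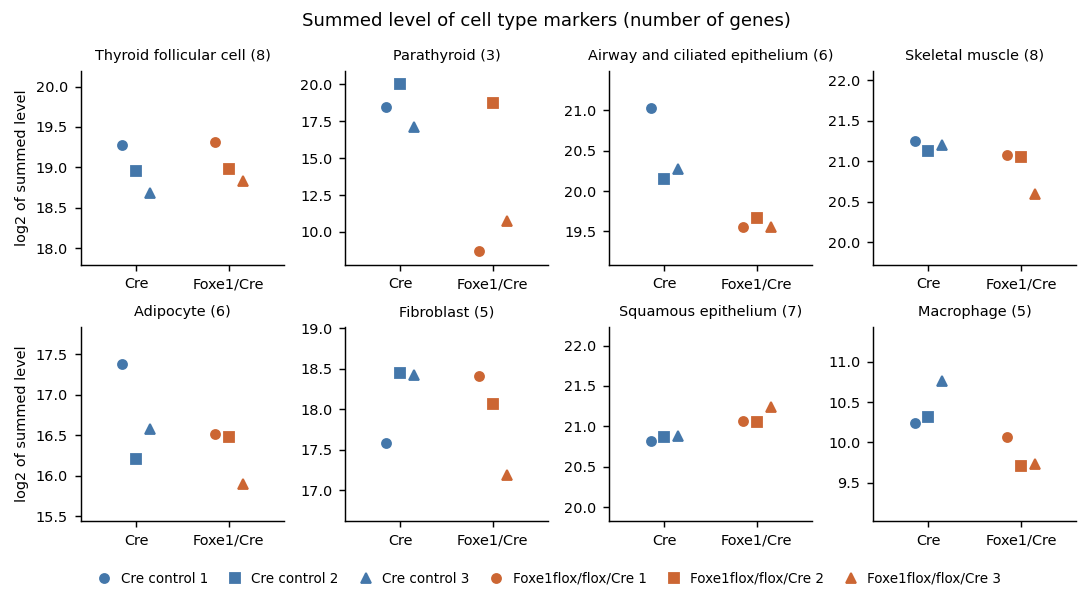
Summed level of 8 lists of cell type markers (log2 of the summed intensities) on each Cre control array (blue) and Foxe1flox/flox/Cre array (orange), with the number of genes in brackets. Vertical axes differ between panels. Parathyroid markers run from 8.70 in knockout 1 to 20.0 in control 2, and muscle, adipocyte and fibroblast markers are lowest in knockout 3.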

How the data were processed

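The deposited file holds log2 values of probe sets to 2 decimals. The submitters' processing notes name RMA and Affymetrix Expression Console, without settings, annotation or build. RMA equalises the arrays and removes changes shared by most transcripts. RNA (250 ng, integrity number of at least 7) was labelled with a whole-transcript kit, per the labels' protocols. Of 22206 probe sets 19572 carry 1 symbol in the platform's annotation table, all matched to RefSeq. The brightest probe set stood for a gene. limma 3.58.1 in R 4.3.3 (lmFit, eBayes) was fitted to all probe sets, two-sided, with Benjamini-Hochberg adjustment and a threshold of 0.05, and was tested on simulated data. Tables and plots used Python 3.11.15 and matplotlib 3.10.9. The number of arrays limits the precision.

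The members and lists were chosen with earlier results of these data known. All cyclases, G alpha, kinase A, Rap1 and CREB members are named with values, as are phosphodiesterases and anchors past the threshold, with groups apart and a difference of at least 0.5, or among the 3 highest of their role. In each wider list those past the threshold, or else the 2 with the smallest p, are named, and Tshr. Other genes were named after their values were seen, among them Pde4a, Pde8a, Pde9a, Fos, Gnai1 and Hcn4. Alternatives covered normalization, variance prior, array weights, filters on dim probe sets, sex, the replicate number as a block and leaving out each array.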

Additional observations from a re-analysis of the deposited data

How the results depend on the processing

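No alternative called a member: the count stayed at 0 in all settings run, and the smallest adjusted p of a member lay between 0.089 and 0.367. Over all probe sets 75 were called, and the count was 118 with trend and robust fitting, 260 at a threshold of 0.1, 0 with an ordinary t statistic and 2 to 43 when 1 array was left out. The number of members with groups apart was 16 of 61, beside 18.5% of named genes. Among probe sets above the median (fewer genes tested) it was 8 of 37, beside 24.8%. Without 1 array, which makes separation easier, it was 19 to 25 of 61, beside 27.6% to 29.8% of named genes. The members' median difference of -0.26 lay between -0.29 and -0.082 without 1 array. Of the wider lists 1 gene was called, 2 with array weights or at a threshold of 0.1 (Nr4a2 added), 0 among probe sets above the median, which leaves out Hcn2, 0 with an ordinary t statistic and 0 to 1 without 1 array. Foxe1 kept its difference of -4.19 with an adjusted p of 0.223 under the ordinary t statistic, and its mean over all arrays is too low for the filter at the median. Signs turned for some differences, none of them called, and not only for small ones, as Fos (0.80) was among them. Adcy6 was at 0.030 and Akap9 at 0.00053 with array weights, and Akap9 at 0.028 with median centring. Without 1 array the ranges that cross 0 among the named genes are -0.087 to 0.33 for Adcy3, -0.33 to 0.012 for Adcy4, -0.30 to 0.075 for Adcy5, -0.24 to 0.040 for Adcy6, -0.12 to 0.095 for Akap9, -0.24 to 0.050 for Prkacb, -0.29 to 0.52 for Prkar1b, -0.44 to 0.062 for Prkar2b, -0.32 to 0.020 for Pde10a, -0.56 to 0.093 for Pde2a, -0.015 to 0.48 for Pde8b, -0.015 to 0.52 for Akap13, -0.032 to 1.71 for Fos, -0.068 to 0.17 for Gnai1, -0.023 to 0.12 for Gnai2, -0.79 to 0.023 for Prkg1, -0.098 to 0.20 for Tg and -0.17 to 0.075 for Abcc4. With the replicate number as a block 63 probe sets and 0 members were called; same-numbered arrays correlated at -0.0090, 0.076 and 0.017 in their deviations, and 3 of the 6 arrays correlated best, across groups, with the array of the same number.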

Other observations

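Insulin-like growth factor signalling, which acts together with thyrotropin on follicular cells, was read from 20 genes chosen after the values above were seen. None passed the limma threshold, 5 had an unadjusted p under 0.05, all of them lower in the knockout, where 13.1% of all named genes reached it, and 14 of 20 differences were negative (median -0.36). Knockout 3, the array lowest in muscle, fibroblast and several other marker lists, was the lowest for 10 of the 20. The part of these tissues in the differences was not tested. Igfbp5, a binding protein of these growth factors, read 15.78, 15.67 and 15.55 in controls against 15.29, 14.72 and 14.19 in knockouts, a difference of -0.93 (limma adjusted p = 0.195), with all knockouts below all controls. Irs1, which passes the signal on from the receptors, had a difference of -0.60 and the insulin receptor Insr one of -0.41, both with groups apart. The receptor Igf1r had one of 0.38 with overlapping groups. Groups were apart in 8 of the 20, 2 above and 6 below, or 40% beside 18.5% of named genes. Those above were Foxo1 (0.26) and Pik3r1 (0.23). Among 3 transporters of the family that exports cyclic nucleotides, Abcc5 had a difference of -0.97 (limma adjusted p = 0.227) with groups apart, and Abcc4 one of -0.020.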
